A study of Mus musculus with 18 samples.

Results

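The liver endothelial cell genes described here are 32 genes taken by symbol from a table of 52636 genes measured by RNA sequencing of whole mouse liver. All 32 symbols were found once, and all 32 were among the 13958 genes with enough reads to be tested. The set holds 12 genes of scavenging and sinusoidal identity, 8 growth factor receptors and their partners, 8 genes of junctions, cell surface and general endothelial identity, and 4 genes of secreted signals. Every gene was followed across 18 livers in 6 groups of 3.

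H-WT and H-KO livers came from a line that carries the Hnf4atm1.1Gonz allele, and were taken at 10 weeks of age. BH-WT and BH-KO livers came from a line that carries Arntltm1Weit as well as Hnf4atm1.1Gonz, and were also taken at 10 weeks. BH-HF-WT and BH-HF-KO livers came from that second line at 45 weeks of age, and their high-fat diet had lasted 35 weeks. All groups share the Albtm1(cre/ERT2)Mtz allele, a tamoxifen-dependent Cre recombinase at the albumin locus, whose expression is that of hepatocytes, and tamoxifen at 10 mg/mL over 5 days at 8 weeks of age. WT and KO animals of a line share 1 strain label, and no source used here says how the WT animals differed. The recombinase was therefore not directed at endothelial cells in any group. All livers were collected at ZT8, that is 8 hours into the light phase. Age and diet cannot be told apart in the older groups.

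Liver sinusoidal endothelial cells line the blood channels between plates of hepatocytes. They have open pores and little basement membrane, and they take up waste molecules from blood through scavenger receptors such as the stabilins. Their survival and identity depend on vascular endothelial growth factor and angiopoietin signals, many of them made by neighbouring cells. In turn they secrete BMP2, which drives hepcidin production by hepatocytes, and WNT2, WNT9B and RSPO3, which switch on the beta-catenin targets of hepatocytes around the central vein. Several of the 32 genes are also expressed outside endothelium: Maf, Stab1 and Fcgr2b in macrophages, Gata4 in hepatocytes and stellate cells, and Aqp1 in bile duct cells. In whole liver, a lower level can come from fewer cells of a type or from less RNA per cell, and these cannot be told apart.

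The libraries held 6846471 to 9816124 counted reads, and levels below are CPM, read counts per library scaled to a common total with TMM factors. At that depth, 3 counts corresponded to 0.306 to 0.438 CPM when scaled by plain library totals, without TMM factors. With TMM factors the range differs: the 3 counts of Emcn in BH-HF-KO replicate 1 were 0.443 CPM. Of the 32 genes, 30 had at least 3 counts in every library; Wnt2 in BH-HF-KO replicate 2 and Wnt9b in BH-WT replicate 3 had 2 counts. Hnf4a, a targeted gene, was between 556 and 658 CPM in H-KO against 581 to 889 CPM in H-WT, and did not pass the test in any KO group. Arntl was 17.4 to 24.1 CPM in BH-KO and at most 2.61 CPM in the other 15 libraries, so the libraries labelled BH-HF-KO lacked the Arntl level of BH-KO. These counts cover whole genes and do not show a deleted exon. BH-KO replicate 1 stood apart from BH-KO replicates 2 and 3: its TMM factor was 0.881 against 1.26 and 1.30, and its albumin (Alb) level was 42215 CPM against 18841 and 13807 CPM. H-WT replicate 3 had 1084 CPM of Xist, against at most 3.90 CPM in every other library. It also had 5.74 CPM of the Y-linked gene Ddx3y, against 115 to 185 CPM in every other library. This library is part of the reference of every H-KO comparison with H-WT.

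Per kilobase of exon, the highest mean levels in H-WT were those of Aqp1 (18.3 CPM per kb), a water channel, Plvap (12.8), which forms the diaphragms of endothelial pores, Clec4g (10.5), a lectin of sinusoidal endothelium, Fcgr2b (9.71), the inhibitory Fc receptor that clears immune complexes, and Eng (8.77), a coreceptor for BMP9. Wnt9b and Emcn were lowest, at 0.182 and 0.242 CPM per kb. Exons of 10 of the 32 genes overlap another annotated gene, so reads of Ramp2, which shares 1103 bases with Vps25 on the same strand, and of Egfl7, which hosts the microRNA gene Mir126a, are uncertain.

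The summed level of the 32 genes was 595 to 918 CPM in H-WT, 537 to 602 CPM in H-KO, 398 to 768 CPM in BH-WT and 371 to 404 CPM in BH-KO. In the older livers it was 326 to 421 CPM in BH-HF-WT and 267 to 385 CPM in BH-HF-KO. The sums of both KO groups at 10 weeks were close together between replicates, whereas their WT groups spread widely. Of the 32 genes, 21 had their highest group mean in H-WT and 20 had their lowest in BH-HF-KO. The exceptions at the top were 6 genes highest in H-KO (Cav1, Esam, Lyve1, Sox18, Wnt2 and Wnt9b), 4 highest in BH-WT (Aqp1, Cdh5, Emcn and Maf) and Gata4, highest in BH-HF-KO.

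**Figure D1:**
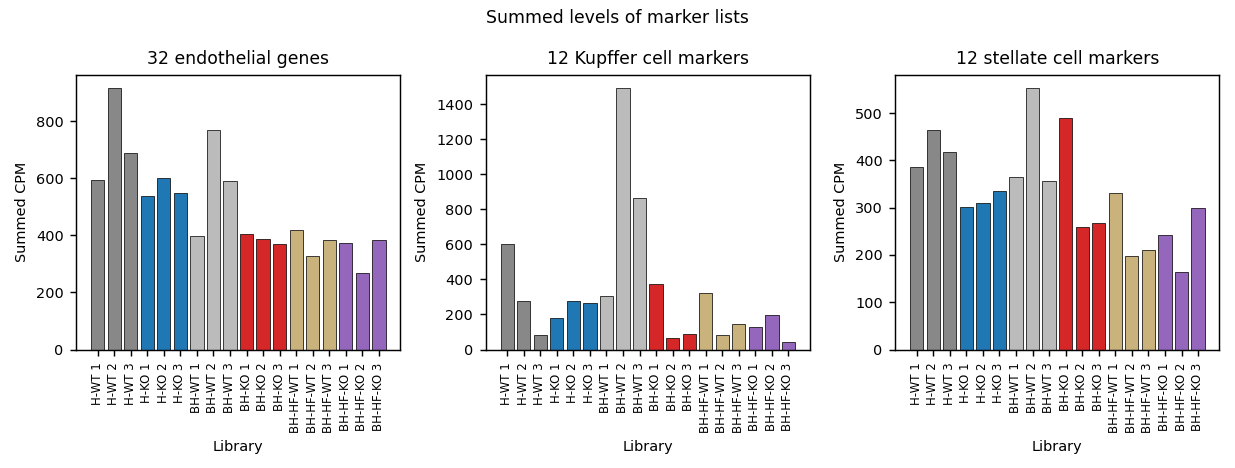
Summed CPM per library for the 32 endothelial genes, 12 Kupffer cell markers and 12 stellate cell markers, 1 bar per library in the order of the 6 groups. BH-WT replicate 2 has the highest Kupffer sum (1494 CPM), and the endothelial sum is highest in H-WT and lowest in BH-HF-KO.

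The genes moved together between replicates of a group. H-WT replicate 2 was the highest of its group for 26 of the 32 genes and H-WT replicate 1 the lowest for 24. BH-WT replicate 2 was the highest for 24 and BH-WT replicate 1 the lowest for 29. Among the older KO livers, BH-HF-KO replicate 2 was the lowest for 25. The median coefficient of variation over the 32 genes was 28.7% in H-WT and 38.1% in BH-WT, against 13.96% in H-KO and 13.4% in BH-KO.

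**Figure D2:**
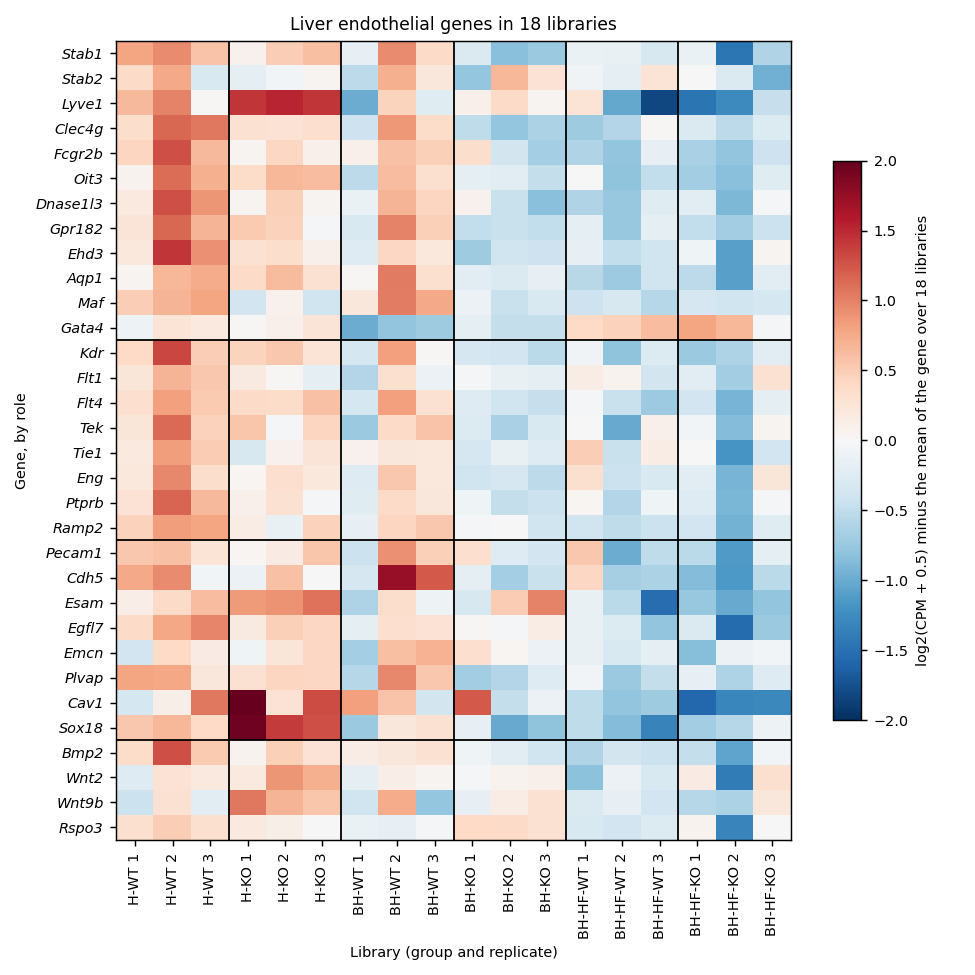
Each row is 1 of the 32 genes, grouped by role, and each column 1 of the 18 libraries; colour is log2(CPM + 0.5) minus the mean of the gene over all libraries. BH-WT replicate 1 is low and BH-WT replicate 2 high for most rows, and Gata4 has its highest group means in the livers of 45 weeks.

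Each comparison asked how many of the 32 genes differed, with edgeR's quasi-likelihood test and Benjamini-Hochberg adjustment over all tested genes, at an adjusted p under 0.05. In H-KO against H-WT, 1 gene rose (Sox18) and 1 fell (Maf), 6.25% of the 32 against 34.9% of all tested genes (15.8% rose and 19.1% fell). Of the 32 estimates, 25 were below 0, with a median log2 fold change of -0.36 against 0.00 over all tested genes. In BH-KO against BH-WT, 8 fell and none rose, 25% against 28.6% of all tested genes (14.3% rose and 14.3% fell). Here 26 estimates were below 0, with a median of -0.54 against 0.03. The share that passed was thus below the background in the first comparison and close to it in the second.

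In BH-HF-KO against BH-HF-WT, 0 of 32 genes passed edgeR's quasi-likelihood test, as did 0% of all tested genes; none of the 32 had an unadjusted p under 0.05, and DESeq2 and limma-voom also called 0. Between the WT groups of the 2 lines, BH-WT against H-WT, 0 passed with edgeR and with limma-voom, against 0.165% of all tested genes, 6 had an unadjusted p under 0.05, and DESeq2 called 1 (Gata4). The 2 KO groups at 10 weeks differed in 5 genes, all lower in BH-KO, 15.6% against 16.4% of all tested genes (6.3% fell). That comparison joins line and deletion, and 20 of the 32 genes had all BH-KO libraries below all H-KO libraries, 62.5% against 17.3% of all tested genes. With age and high-fat diet, BH-HF-WT against BH-WT, 1 gene rose (Gata4) and 2 fell (Maf and Aqp1), 9.38% against 7% of all tested genes (2.79% rose and 4.21% fell). The comparisons of BH-KO and of BH-HF-WT share the 3 BH-WT libraries, and the comparison of the KO groups shares its libraries with those of each KO group against its WT group.

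Whether the 3 libraries of a group lay wholly above or below those of the other gave a similar picture. In H-KO against H-WT this held for 10 of the 32 genes, 31.2% against 51.9% of all tested genes, and in BH-KO against BH-WT for 11, 34.4% against 34.9%. It held for 5 in BH-WT against H-WT, 15.6% against 14.7%, and in each of them BH-WT was the lower group. It held for 9 in BH-HF-WT against BH-WT, 28.1% against 31%. The KO groups of 10 weeks were the exception, with 21 of 32 genes, 65.6% against 36.2%, and Rspo3 the only 1 of the 21 that was higher in BH-KO.

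**Figure D3:**
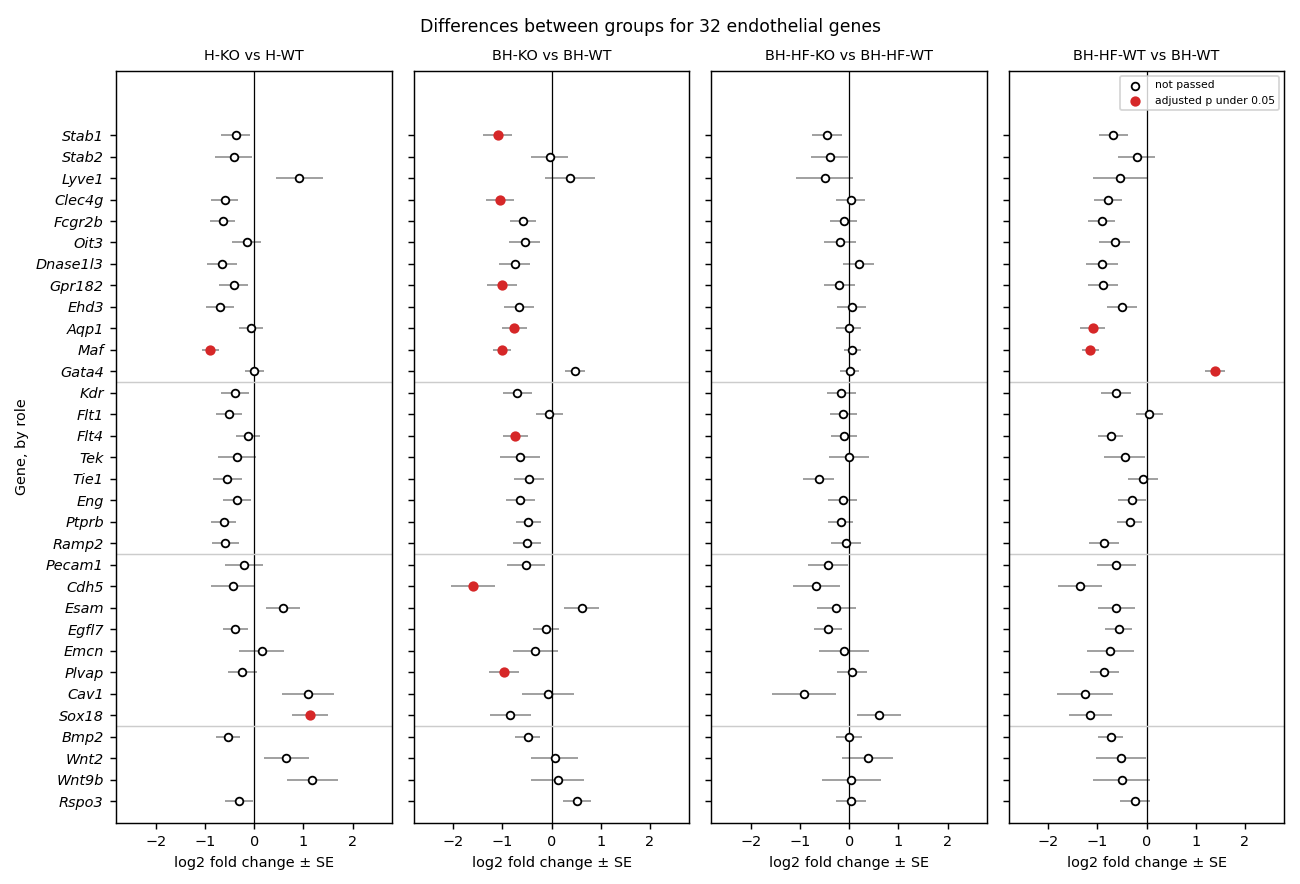
The log2 fold change with its SE from edgeR's quasi-likelihood fit, for each of the 32 genes in 4 comparisons; filled red points have an adjusted p under 0.05. Left of 0 lie 25 of 32 points in H-KO, 26 in BH-KO and 30 in BH-HF-WT, and no point is filled in BH-HF-KO against BH-HF-WT.

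The count in BH-KO depended on single libraries. It was 1 without BH-WT replicate 2 and also 1 without BH-KO replicate 2, Maf being the gene that passed in each case, 3 without BH-KO replicate 3, and 12 without BH-KO replicate 1. The 4 genes added without BH-KO replicate 1, the library that stood apart, were Sox18 (-1.20, adjusted p = 0.0394, edgeR), Fcgr2b (-0.93, 0.00765) and Dnase1l3 (-1.02, 0.0252), which fell, and Esam (0.89, 0.0376), which rose. With the compared groups alone, Maf was the only gene of the 8 that passed. In H-KO it was 6 without H-WT replicate 1 (all 6 fell), 1 without H-KO replicate 1 and 3 without H-KO replicate 2. Without H-WT replicate 3 it was 2 as before, with Cav1 (1.63, adjusted p = 0.0482, edgeR) in place of Sox18. In BH-KO against H-KO it was 1 without H-KO replicate 2, H-KO replicate 3 or BH-KO replicate 2, and 2 without H-KO replicate 1 or BH-KO replicate 3. In BH-HF-WT it was 11 without BH-WT replicate 1. Scaling mattered as well. With plain library totals in place of TMM the median over all tested genes moved to 0.50 in H-KO and 0.35 in BH-KO, and that of the 32 genes to 0.14 and -0.25. With totals, 6 of the 32 rose and 0 fell in H-KO, and 2 rose and 3 fell in BH-KO. Under either scaling the median of the 32 lay below that of all tested genes.

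Maf, a transcription factor of sinusoidal endothelial identity (ENSMUSG00000055435, chr8:115682942-115707794, mm10), was the member that passed in most comparisons. It was 56.0, 63.6 and 69.2 CPM in H-WT and 30.1, 41.9 and 29.9 CPM in H-KO. In BH-WT it was 46.4, 81.1 and 67.1 CPM, in BH-KO 36.4, 28.9 and 31.8 CPM. The WT and KO libraries did not overlap in either line. Maf fell by 0.89 on the log2 scale in H-KO (SE 0.17, n = 3 and 3, adjusted p = 0.00119, edgeR) and by 1.01 in BH-KO (SE 0.18, adjusted p = 0.000845, edgeR). Both calls held without each library in turn (highest adjusted p 0.00830 and 0.00633), while the H-KO call was lost with plain totals (-0.38, adjusted p = 0.106).

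In the older livers Maf was low in both groups, at 29.6, 31.7 and 26.6 CPM in BH-HF-WT and 31.4, 29.9 and 30.8 CPM in BH-HF-KO. All 6 values lay below the lowest 10-week WT library. BH-HF-WT was lower than BH-WT by a log2 difference of -1.15 (SE 0.18, adjusted p = 0.00271, edgeR), which held without each library (highest adjusted p 0.0174). BH-HF-KO differed from BH-HF-WT by 0.07 (SE 0.18, adjusted p = 1, edgeR). The KO effect in the older livers minus that at 10 weeks in the same line was 1.07 (SE 0.25, adjusted p = 0.0203, edgeR); 6.1% of all tested genes passed this comparison of effects and 3.45% were positive like Maf. It was lost without BH-KO replicate 2, BH-KO replicate 3, BH-HF-WT replicate 3 or BH-HF-KO replicate 1, with a highest adjusted p of 0.0579, and with plain totals (0.78, adjusted p = 0.0835).

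Of the other scavenging genes, Stab1, Clec4g, Gpr182 and Aqp1 fell in BH-KO, which makes 5 of the 12 genes of this role with Maf, where 14.3% of all tested genes fell. Of the 5, Maf was the 1 that also passed with the compared groups alone. The sequences before the starts of Stab1, Clec4g and Aqp1 are shown because these 3 genes fell together and have a promoter entry in RefSeq that holds an ETS core, the letters bound by the ERG and FLI1 family of endothelial factors. Each is the 250 bases upstream of a RefSeq start in GRCm38.p6, which for Stab1 and Clec4g is the start of the GENCODE gene and for Aqp1 lies 133 bases before it, written 5′ to 3′ on the gene's strand: chr14:31168642-31168891 on the minus strand for Stab1, chr8:3720652-3720901 on the minus strand for Clec4g, and chr6:55336049-55336298 on the plus strand for Aqp1. Capitals mark AGGAAG or its reverse complement CTTCCT and, in Clec4g, the SOX core ACAATG. In Clec4g 2 of the 3 ETS matches overlap.
Stab1: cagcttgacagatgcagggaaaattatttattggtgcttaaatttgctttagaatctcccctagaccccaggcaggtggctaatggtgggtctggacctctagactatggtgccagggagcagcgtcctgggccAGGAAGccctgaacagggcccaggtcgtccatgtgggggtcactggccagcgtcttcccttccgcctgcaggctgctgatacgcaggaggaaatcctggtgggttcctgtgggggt
Clec4g: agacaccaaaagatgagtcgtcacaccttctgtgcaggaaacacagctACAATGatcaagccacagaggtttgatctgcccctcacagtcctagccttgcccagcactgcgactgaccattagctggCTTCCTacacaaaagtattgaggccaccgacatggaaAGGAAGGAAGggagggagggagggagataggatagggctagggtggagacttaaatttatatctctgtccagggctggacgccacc
Aqp1: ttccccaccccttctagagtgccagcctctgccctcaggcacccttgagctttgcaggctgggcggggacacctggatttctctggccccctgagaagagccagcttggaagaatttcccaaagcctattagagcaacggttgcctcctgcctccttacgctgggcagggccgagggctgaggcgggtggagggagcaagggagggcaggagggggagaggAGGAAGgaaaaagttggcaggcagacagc

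RefSeq promoters matched 17 of the 32 genes, with 20 windows in all. On either strand, AGGAAG was found in 10 of the 20 windows, those of 9 genes (Aqp1, Clec4g, Egfl7, Emcn, Eng, Flt1, Stab1, Stab2 and Tie1), against 29.5% of 32851 mouse promoters of the same length. The SOX core ACAATG was in 1 window (Clec4g), against 10.7% of all promoters. None of the 20 windows held the E-box CACGTG (6.02% of all promoters), the GATA core AGATAA (9.99%), the HNF4 word CAAAGTCCA (0.384%) or the D-box TTATGTAA (0.819%). Flt4, which also fell in BH-KO, has a window with 0 ETS matches. Stab2, whose window holds the ETS core, passed in no comparison with edgeR's quasi-likelihood test. Whether the core had a part in the fall of Stab1, Clec4g and Aqp1 was not tested. These are counts of letters and not of bound sites, and motifs spelled otherwise were not searched.

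Stab1 and Stab2 encode the 2 stabilins, paralogous scavenger receptors that clear hyaluronan and other waste. Stab1 was 20.5, 45.1 and 30.1 CPM in BH-WT and 18.7, 12.7 and 13.6 CPM in BH-KO. Every BH-KO library lay below every BH-WT library. Stab1 fell by 1.10 on the log2 scale (SE 0.30, adjusted p = 0.0145, edgeR) and was also lower in BH-KO than in H-KO, where it was 24.5, 32.5 and 35.2 CPM (-1.04, SE 0.30, adjusted p = 0.0274, edgeR). Stab2 had no such difference: it was 28.8, 68.4 and 48.6 CPM in BH-WT and 24.1, 66.6 and 51.0 CPM in BH-KO (-0.04, SE 0.38, adjusted p = 0.954, edgeR), and these libraries overlapped fully.

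Stab2, like Lyve1, Wnt9b and Rspo3 below, is described because of its pattern, chosen after its values were seen. The ratio of Stab1 to Stab2 within a library, both in CPM, was 0.778, 0.191 and 0.266 in BH-KO against 0.712, 0.659 and 0.618 in BH-WT. Replicates 2 and 3 of BH-KO thus had the low ratio and replicate 1 did not. In H-WT it was 0.739, 0.638 and 1.03 and in H-KO 0.676, 0.816 and 0.813. The older livers ranged from 0.239 to 0.715, with no separation of WT and KO. The differences in ratio were not tested.

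Clec4g was 10.1, 25.5 and 17.9 CPM in BH-WT and 9.51, 7.80 and 8.64 CPM in BH-KO, a log2 difference of -1.05 (SE 0.28, adjusted p = 0.0128, edgeR). The KO libraries were all lower, though the lowest BH-WT library was close to them. Against H-KO, where Clec4g was 16.96, 16.8 and 17.3 CPM, BH-KO was lower by -0.98 (SE 0.28, adjusted p = 0.0264, edgeR). Gpr182, an atypical chemokine receptor of lymphatic and sinusoidal endothelium, was 7.02, 17.9 and 12.3 CPM in BH-WT and 6.09, 6.28 and 6.08 CPM in BH-KO. It fell by 1.01 (SE 0.30, adjusted p = 0.0204, edgeR), again with no overlap. Without BH-WT replicate 2 or BH-KO replicate 2 the BH-KO calls of Stab1, Clec4g and Gpr182 were lost (highest adjusted p 0.0821, 0.0859 and 0.135); those of Stab1 and Gpr182 were also lost without BH-KO replicate 3. Between the KO groups, the Clec4g call was lost when 5 of the 6 libraries were left out in turn (highest adjusted p 0.0757), and the Stab1 call when H-KO replicate 2, H-KO replicate 3, BH-KO replicate 2 or BH-KO replicate 3 was (highest 0.0933).

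Aqp1 was 34.1, 69.0 and 42.0 CPM in BH-WT, 28.7, 27.4 and 29.9 CPM in BH-KO and 22.7, 20.1 and 25.3 CPM in BH-HF-WT. Neither group overlapped BH-WT. Aqp1 fell by 0.76 in BH-KO (SE 0.25, adjusted p = 0.0341, edgeR) and by 1.09 in BH-HF-WT (SE 0.25, adjusted p = 0.0207, edgeR). In H-KO it was 44.0, 51.9 and 41.4 CPM against 34.7, 53.2 and 56.0 CPM in H-WT, and these overlapped. The BH-KO call was lost without BH-WT replicate 2, BH-KO replicate 2 or BH-KO replicate 3 (highest adjusted p 0.212), and the BH-HF-WT call without BH-WT replicate 2, BH-HF-WT replicate 1 or BH-HF-WT replicate 2 (highest 0.116).

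Gata4, a zinc-finger factor needed for sinusoidal endothelium to form (ENSMUSG00000021944, chr14:63198922-63271692, mm10), went the other way. It was 5.05, 5.88 and 6.23 CPM in BH-WT and 13.98, 14.6 and 16.3 CPM in BH-HF-WT. No library of the older group came near the younger ones, and Gata4 rose by 1.39 on the log2 scale (SE 0.20, adjusted p = 0.00173, edgeR), a call kept without each library (highest adjusted p 0.0119) and in every other setting tried. BH-HF-KO was similar in level, at 18.4, 16.8 and 10.2 CPM. H-WT had 9.71, 12.8 and 12.05 CPM, all above BH-WT; that difference, -1.01 (SE 0.20), had an adjusted p of 0.0613 with edgeR's quasi-likelihood test and of 0.00961 with DESeq2. Gata4 in BH-KO was 9.06, 7.42 and 7.40 CPM, all above BH-WT, and did not pass (0.47, SE 0.21, adjusted p = 0.0966, edgeR); it passed with upper-quartile factors (0.55, adjusted p = 0.0491) and plain totals (0.78, 0.0114).

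The other 6 scavenging genes passed in none of the 8 comparisons with edgeR's quasi-likelihood test. Other tools called some of them: DESeq2 called Fcgr2b in BH-HF-WT against BH-WT (-0.90, adjusted p = 0.0236) and, in BH-KO against H-KO, Oit3 and Lyve1 (adjusted p = 0.0391 and 0.0358). For Oit3 and Lyve1, limma-voom did so too (0.0473 and 0.0112). Fcgr2b was 42.4, 76.9 and 49.3 CPM in H-WT and 32.4, 42.0 and 33.7 CPM in H-KO (-0.64, SE 0.26, adjusted p = 0.0686, edgeR), with no overlap. It was 33.7, 47.1 and 43.6 CPM in BH-WT and 20.4, 18.0 and 27.8 CPM in BH-HF-WT (-0.91, SE 0.27, adjusted p = 0.0533, edgeR). Ehd3, an endocytic trafficking protein, was 25.7, 60.7 and 42.3 CPM in H-WT, 27.5, 28.5 and 23.7 CPM in H-KO and 18.4, 29.7 and 25.7 CPM in BH-WT. Its H-KO difference (-0.69, SE 0.29, adjusted p = 0.0763, edgeR) passed without H-WT replicate 1 (adjusted p = 0.0140), as did that of Fcgr2b (0.0368). Lyve1, the hyaluronan receptor of sinusoids and lymphatics, was 5.45, 7.04 and 3.36 CPM in H-WT and 9.73, 10.5 and 9.75 CPM in H-KO. All H-KO libraries were higher, and the difference did not pass in the fit of all groups (0.91, SE 0.48, adjusted p = 0.153, edgeR). It passed with limma-voom (0.95, adjusted p = 0.0349), with the compared groups alone (0.91, 0.0178) and with plain totals (1.42, 0.0268). In BH-KO against BH-WT the 6 estimates ran from -0.75 for Dnase1l3, a secreted nuclease, to 0.37 for Lyve1; those of Oit3 and Stab2 were -0.55 and -0.04.

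The 8 receptors bind growth factors or modulate those that do. None passed in H-KO, BH-HF-KO, BH-WT or BH-HF-WT against its reference, where 34.9%, 0%, 0.165% and 7% of all tested genes passed. In BH-KO 28.6% of all tested genes passed, and 1 of the 8 receptors did. That gene was Flt4, VEGF receptor 3, which binds VEGF-C (ENSMUSG00000020357, chr11:49609263-49652739, mm10). Flt4 was 12.2, 28.2 and 19.5 CPM in BH-WT, 13.1, 11.8 and 11.3 CPM in BH-KO and 20.6, 20.3 and 23.8 CPM in H-KO. Its BH-KO libraries overlapped the lowest BH-WT library and lay below all H-KO libraries. Flt4 fell by 0.74 against BH-WT (SE 0.26, adjusted p = 0.0452, edgeR) and by 0.84 against H-KO (SE 0.26, adjusted p = 0.0359, edgeR). The first call was lost without BH-WT replicate 2, BH-WT replicate 3, BH-KO replicate 2 or BH-KO replicate 3 (highest adjusted p 0.276) and in 6 of 10 other settings, limma-voom and the replicate block among them (highest 0.238), and the second without each of the 6 libraries in turn (0.0516 to 0.112).

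Kdr, the main VEGF-A receptor of these cells, was 18.5, 42.5 and 24.3 CPM in BH-WT and 18.7, 18.1 and 16.2 CPM in BH-KO (-0.69, SE 0.30, adjusted p = 0.0915, edgeR), which overlapped. In H-KO Kdr was 32.5, 35.0 and 28.8 CPM, all above BH-KO, and this difference did not pass in the edgeR fit of all libraries. It passed with DESeq2 (-0.86, adjusted p = 0.0338), upper-quartile factors, plain totals and the compared groups alone. Ptprb, the phosphatase that restrains the angiopoietin receptor, was 54.8, 101 and 70.0 CPM in H-WT, 47.8, 55.3 and 43.5 CPM in H-KO and 37.6, 58.2 and 52.4 CPM in BH-WT. Its H-KO difference was -0.62 (SE 0.25, adjusted p = 0.0672, edgeR) and its BH-WT against H-WT difference -0.60 (SE 0.25, adjusted p = 0.502, edgeR). The H-KO libraries overlapped the lowest H-WT library. Tie1, the orphan partner of the angiopoietin receptor Tek, had the smallest unadjusted p of the 32 genes in the older KO comparison. It was 8.34, 4.12 and 6.44 CPM in BH-HF-WT and 5.75, 2.27 and 4.31 CPM in BH-HF-KO (-0.62, SE 0.31, unadjusted p = 0.0652, adjusted p = 1, edgeR), and the groups overlapped. Ramp2, a partner of the adrenomedullin receptor, was 2.67, 4.29 and 4.64 CPM in BH-WT and 2.18, 1.998 and 2.15 CPM in BH-HF-WT (-0.87, SE 0.30, adjusted p = 0.0892, edgeR), with no overlap. All 8 receptor estimates were below 0 in H-KO and in BH-KO, and 7 of 8 in the older KO comparison.

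Among 12 tested ligands and coreceptors of these receptors, 1 rose and 3 fell in H-KO, and 2 fell in BH-KO. Of all tested genes, 15.8% rose and 19.1% fell in H-KO and 14.3% fell in BH-KO, so these counts are near the background. Nrp2, a coreceptor of FLT4, had the smallest p of the list in BH-KO. It was 22.4, 38.0 and 34.4 CPM in BH-WT and 12.3, 7.51 and 5.99 CPM in BH-KO (-1.90, SE 0.29, adjusted p = 0.000352, edgeR), with no overlap. It was also low in BH-HF-WT, at 7.57, 11.4 and 10.0 CPM (-1.71, SE 0.29, adjusted p = 0.00515, edgeR), while H-KO, at 54.7, 52.2 and 48.7 CPM, overlapped H-WT, at 51.9, 50.1 and 27.7 CPM. The BH-KO effect minus the H-KO effect was -2.16 for Nrp2 (adjusted p = 0.00672, edgeR), and all 3 of these Nrp2 calls held without each library. The other gene that fell in BH-KO was Acvrl1, the BMP9 receptor (-1.27, SE 0.41, adjusted p = 0.0291, edgeR), a call lost without BH-WT replicate 2, BH-KO replicate 2 or BH-KO replicate 3 (highest 0.170). In H-KO, Gdf2, which encodes the secreted ligand BMP9, fell by 0.75 (adjusted p = 0.0183, edgeR), and Angpt1, the ligand of TEK, rose by 1.68 (adjusted p = 0.0191, edgeR). The Gdf2 call was lost without H-WT replicate 2, H-KO replicate 2 or H-KO replicate 3 (highest 0.0744), and that of Angpt1 without H-WT replicate 1, H-WT replicate 2 or H-KO replicate 2 (highest 0.0902). Vegfa, the ligand of KDR, also fell (-0.44, adjusted p = 0.0203, edgeR), and its estimate changed sign with plain totals. With those totals 3 of the 12 rose and 1 fell in H-KO.

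Sox18, a SOXF transcription factor of endothelium and lymphatics (ENSMUSG00000046470, chr2:181669836-181671640, mm10), was the only member that rose in a KO group in the edgeR fit of all libraries. It was 3.46, 3.83 and 3.08 CPM in H-WT and 10.0, 6.70 and 6.14 CPM in H-KO. In the second line it was 1.12, 2.70 and 2.88 CPM in BH-WT and 1.93, 0.856 and 1.06 CPM in BH-KO. The H-KO libraries were the highest of all 18 libraries for this gene, and the BH-WT and BH-KO libraries overlapped. Sox18 rose by 1.14 in H-KO (SE 0.36, adjusted p = 0.0236, edgeR) and had an estimate of -0.84 in BH-KO (SE 0.42, adjusted p = 0.141, edgeR), which passed without BH-KO replicate 1 (-1.20, adjusted p = 0.0394). The difference of the KO groups themselves, BH-KO against H-KO, was -2.61 (SE 0.40, adjusted p = 0.000517, edgeR).

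The difference between the KO effects of the 2 lines was -1.98 for Sox18 (SE 0.55, adjusted p = 0.0461, edgeR), in a comparison that 6.06% of all tested genes passed (2.3% in this direction); Sox18 was the only 1 of the 32. It was lost without 10 of the 12 libraries in turn, all but BH-WT replicate 1 and BH-KO replicate 1, with a highest adjusted p of 0.123, and also without a filter, with the compared groups alone or with the replicate block (highest 0.0749). The rise in H-KO was lost without H-WT replicate 1, H-WT replicate 3 or H-KO replicate 1 (highest adjusted p 0.115) and was kept in the other 10 settings. The direct difference between the KO groups was kept in every setting and without each library (highest adjusted p 0.00338). In the older livers Sox18 was 1.41, 0.999 and 0.573 CPM in BH-HF-WT and 1.18, 1.33 and 2.04 CPM in BH-HF-KO, which overlapped.

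**Figure D4:**
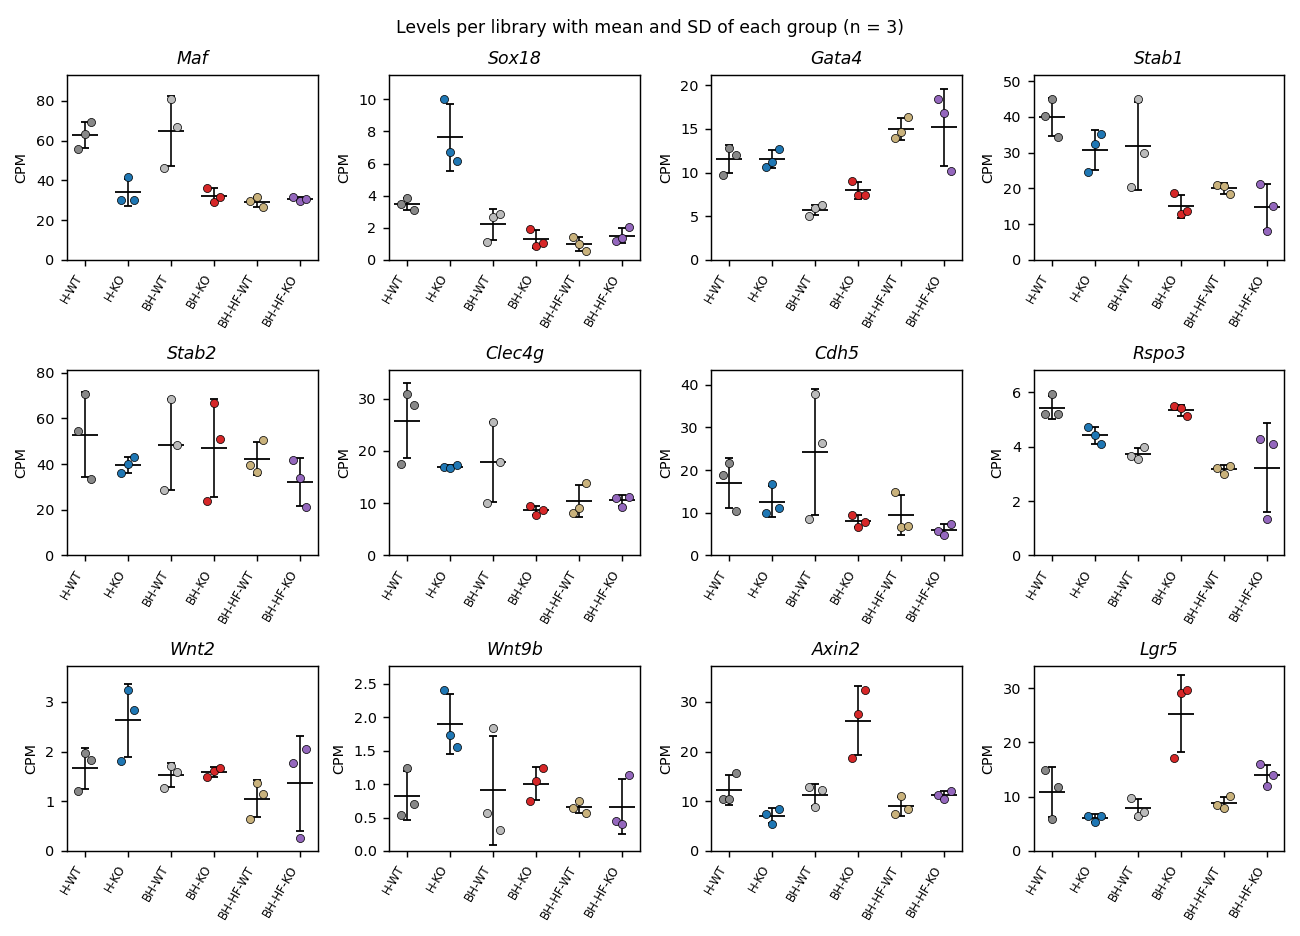
CPM of 12 genes in each library (points) with the group mean and SD, for 10 of the 32 endothelial genes and the hepatocyte Wnt targets Axin2 and Lgr5. Maf is high in the WT groups of 10 weeks alone, Sox18 is highest in H-KO, and Gata4 is lowest in BH-WT.

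Cdh5 and Plvap were the other members of this role that passed. Cdh5, the adhesion molecule VE-cadherin, was 8.56, 37.7 and 26.2 CPM in BH-WT and 9.51, 6.66 and 7.93 CPM in BH-KO. It fell by 1.60 (SE 0.45, adjusted p = 0.0174, edgeR), while BH-WT replicate 1 lay within the BH-KO range. Plvap was 10.9, 32.4 and 24.1 CPM in BH-WT and 9.95, 10.7 and 13.7 CPM in BH-KO and had the same overlap (-0.97, SE 0.30, adjusted p = 0.0249, edgeR). It was also lower in BH-KO than in H-KO, at 20.4, 22.4 and 22.1 CPM (-0.91, SE 0.30, adjusted p = 0.0472, edgeR). The Cdh5 call was lost without BH-WT replicate 2, BH-KO replicate 2 or BH-KO replicate 3 (highest adjusted p 0.0956). The BH-KO call of Plvap was lost without BH-WT replicate 2, BH-WT replicate 3 or BH-KO replicate 2 (0.153), and that between the KO groups without 5 of 6 libraries (0.117).

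Pecam1, the junction protein CD31, passed in no comparison with edgeR's quasi-likelihood test: it was 13.8, 14.4 and 11.5 CPM in H-WT, 9.73, 10.6 and 14.03 CPM in H-KO, 6.88, 18.1 and 13.3 CPM in BH-WT and 12.03, 7.80 and 7.14 CPM in BH-KO. Its groups overlapped in both lines. Cav1, the coat protein of caveolae, was 7.58, 6.25 and 3.04 CPM in BH-WT, 2.69, 2.12 and 2.29 CPM in BH-HF-WT and 1.03, 1.33 and 1.36 CPM in BH-HF-KO. It stepped down without overlap, yet passed in neither (-1.25, adjusted p = 0.195, and -0.91, adjusted p = 1, edgeR). In the older KO comparison it was the 1 member of 32 whose groups did not overlap, 3.12% against 10.4% of all tested genes. Egfl7, a secreted matrix protein of vessels, was 8.47, 7.74 and 5.30 CPM in BH-HF-WT and 7.67, 2.94 and 5.44 CPM in BH-HF-KO (-0.43, SE 0.28, adjusted p = 1, edgeR). Emcn, a mucin-like surface protein, also passed in no comparison.

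Cav1 and Esam passed in no comparison of the edgeR fit of all libraries, and in some other fits. Cav1 was 3.06, 4.44 and 8.97 CPM in H-WT and 19.3, 5.08 and 10.7 CPM in H-KO, which overlapped (1.10, SE 0.52, adjusted p = 0.117, edgeR). It rose without H-WT replicate 3 (1.63, adjusted p = 0.0482), without H-KO replicate 2 (1.45, 0.0464) and with plain totals (1.59, 0.00968). Esam, a tight junction adhesion molecule, was 6.52, 7.78 and 9.25 CPM in H-WT and 11.04, 11.4 and 12.96 CPM in H-KO, all higher (0.59, SE 0.34, adjusted p = 0.203, edgeR). It passed with the compared groups alone (0.59, adjusted p = 0.0264) and with plain totals (1.09, 0.0324). In the second line Esam was 3.65, 7.60 and 5.43 CPM in BH-WT and 4.60, 8.56 and 12.2 CPM in BH-KO, which overlapped (0.61, adjusted p = 0.205, edgeR), and it passed without BH-KO replicate 1 (0.89, 0.0376).

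Of 12 tested endothelial transcription factors outside the 32 genes, 2 fell in H-KO and 3 in BH-KO, and none rose, where 19.1% and 14.3% of all tested genes fell. The H-KO count is thus near the background. Nr2f2, the venous identity factor COUP-TFII, which stellate cells also express, was 75.7, 77.5 and 84.5 CPM in H-WT and 52.8, 44.2 and 49.1 CPM in H-KO. In BH-WT it was 78.9, 70.2 and 79.3 CPM, in BH-KO 51.8, 32.6 and 34.4 CPM. WT and KO did not overlap in either line, and Nr2f2 fell by 0.70 in H-KO (SE 0.15, adjusted p = 0.00233, edgeR) and by 0.95 in BH-KO (SE 0.15, adjusted p = 0.000490, edgeR). Both calls held without each library; that in H-KO was lost with plain totals (adjusted p = 0.209). Sox7, the SOXF relative of Sox18, was 4.21, 6.25 and 4.32 CPM in BH-WT and 1.78, 0.951 and 1.23 CPM in BH-KO (-1.92, SE 0.37, adjusted p = 0.00158, edgeR), with no overlap. Its BH-KO effect minus its H-KO effect was -2.31 (adjusted p = 0.0161, edgeR), and both held without each library. In BH-HF-WT 3 of the 12 fell, where 4.21% of all tested genes fell. Among the 3 was Meis2, a homeobox factor (-1.05, adjusted p = 0.0113, edgeR). Its call was lost without BH-WT replicate 2 or BH-HF-WT replicate 2 (highest 0.0643). The counts went down to 1 in H-KO without H-WT replicate 2, H-WT replicate 3, H-KO replicate 2 or H-KO replicate 3, to 2 in BH-KO without BH-WT replicate 2, BH-WT replicate 3, BH-KO replicate 2 or BH-KO replicate 3, and to 0 in BH-HF-WT without BH-HF-WT replicate 2. With plain totals 1 rose and 0 fell in H-KO.

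Genes of large vessels and capillaries, 11 tested, rose in 2 cases and fell in 1 in H-KO, and rose in 3 and fell in 1 in BH-KO, where 15.8% and 14.3% of all tested genes rose. Cd9, a tetraspanin also made by bile duct cells, was 29.9, 30.9 and 25.4 CPM in BH-WT and 69.5, 102 and 97.7 CPM in BH-KO (1.64, SE 0.25, adjusted p = 0.000345, edgeR). It was 19.02, 18.0 and 19.1 CPM in H-WT and 36.2, 44.4 and 39.5 CPM in H-KO (1.10, SE 0.25, adjusted p = 0.00372, edgeR). The KO libraries were all higher in both lines, and both calls held without each library. Of the bile duct markers, 4 of 6 tested rose in H-KO (2 without H-WT replicate 1, H-WT replicate 2, H-KO replicate 1 or H-KO replicate 3) and 3 of 6 in BH-KO. The 3 that did not rise in BH-KO, the keratins Krt7 and Krt19 and the adhesion molecule Epcam, had estimates of -1.66, -1.59 and -1.08 that did not pass (adjusted p = 0.0823, 0.164 and 0.235, edgeR). Summed with the untested markers of the list, their level was 49.6 to 74.1 CPM in H-WT, 136 to 201 CPM in H-KO, 55.0 to 96.6 CPM in BH-WT and 134 to 378 CPM in BH-KO. Their part in the result was not tested.

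Of 10 tested Notch and shear genes, 2 rose in H-KO and 2 fell in BH-HF-WT. Of all tested genes, 15.8% rose and 4.21% fell in these comparisons. Those that rose were Thbd, an anticoagulant receptor (1.09, SE 0.26, adjusted p = 0.00496, edgeR), and Hes1, a Notch target. Those that fell were Thbd (-1.49, SE 0.29, adjusted p = 0.00923, edgeR) and Klf2, a shear-induced factor. Thbd was 2.26, 2.35 and 1.68 CPM in H-WT and 4.82, 4.54 and 4.09 CPM in H-KO, with no overlap, and its rise held without each library. The Thbd call in BH-HF-WT was lost without BH-HF-WT replicate 2 (adjusted p = 0.0515). Hes1 was lost without 5 of 6 libraries (highest 0.200) and Klf2 without BH-WT replicate 2, BH-WT replicate 3, BH-HF-WT replicate 2 or BH-HF-WT replicate 3 (highest 0.161). With edgeR's quasi-likelihood test 0 of the 10 passed in BH-KO, against 28.6% of all tested genes. There 3 of the 10 had an unadjusted p under 0.05, and 1 rose with plain totals. With those totals 5 rose in H-KO.

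The 4 secreted signals passed in none of the 8 comparisons with edgeR's quasi-likelihood test; 2 had an unadjusted p under 0.05 in H-KO and 0 in BH-KO. With plain totals Wnt9b passed in H-KO (1.68, adjusted p = 0.0192) and Rspo3 in BH-KO (0.84, 0.0495), and with the compared groups alone Wnt9b did in H-KO (1.18, 0.0466). Bmp2 was 12.4, 23.8 and 13.9 CPM in H-WT, 9.94, 13.3 and 11.6 CPM in H-KO, 10.5, 11.2 and 11.8 CPM in BH-WT and 8.91, 7.99 and 7.05 CPM in BH-KO. All BH-KO libraries lay below all BH-WT libraries (-0.49, SE 0.26, adjusted p = 0.162, edgeR), and BH-WT lay below H-WT (-0.58, SE 0.25, adjusted p = 0.507, edgeR). Wnt9b was 0.532, 1.23 and 0.700 CPM in H-WT and 2.41, 1.73 and 1.56 CPM in H-KO. The H-KO libraries were all higher (1.18, SE 0.52, adjusted p = 0.0902, edgeR), and this gene was near the level of a few reads. Wnt2 was 1.20, 1.98 and 1.82 CPM in H-WT and 1.81, 3.24 and 2.83 CPM in H-KO, which overlapped (0.65, SE 0.46, adjusted p = 0.292, edgeR).

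Rspo3, the R-spondin that amplifies Wnt signals, was tight within the 10-week groups. It was 5.19, 5.93 and 5.18 CPM in H-WT and 4.72, 4.43 and 4.09 CPM in H-KO, all lower (-0.30, SE 0.28, adjusted p = 0.451, edgeR). In the second line it was 3.65, 3.55 and 3.996 CPM in BH-WT and 5.50, 5.42 and 5.11 CPM in BH-KO, all higher (0.52, SE 0.29, adjusted p = 0.191, edgeR). The 2 KO effects thus had opposite signs without overlap in either line, and their difference did not pass (0.82, SE 0.41, adjusted p = 0.240, edgeR).

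Some hepatocyte genes that respond to these Wnt signals did pass. Of 16 Wnt response genes, 11 fell and none rose in H-KO, against 19.1% of all tested genes that fell, with a median of -1.14. The count was 7 without H-WT replicate 3 or H-KO replicate 3, and with plain totals 5 fell and 1 rose. Lect2, Cyp1a2 and Cyp2e1 fell by 2.99, 2.98 and 2.54 (adjusted p = 9.15e-06, 2.63e-05 and 4.22e-05, edgeR). All 3 calls held without each library. Glul, Rhbg, Rnf43, Znrf3 and Notum did not pass in H-KO. The summed level of 10 hepatocyte markers was also lower there, at 29603 to 39391 CPM against 106053 to 110403 CPM in H-WT. Whether the fall of the Wnt response genes came through Wnt signals was not tested. In BH-KO 2 rose, Lgr5 and Axin2, and 2 fell, where 14.3% of all tested genes rose and 14.3% fell. These counts are near the background, and estimates of other genes of the list lay on both sides of 0. Of the 2 that fell, Rhbg, an ammonium transporter of cells around the central vein, had the smaller p (-2.90, adjusted p = 0.0325, edgeR). That call was lost without 5 of 6 libraries (highest 0.129). Lgr5, the R-spondin receptor, was 9.82, 6.50 and 7.19 CPM in BH-WT and 17.1, 29.1 and 29.7 CPM in BH-KO (1.70, SE 0.29, adjusted p = 0.000647, edgeR). Axin2, a direct feedback target, was 12.9, 8.82 and 12.3 CPM in BH-WT and 18.7, 27.6 and 32.4 CPM in BH-KO (1.22, SE 0.24, adjusted p = 0.00174, edgeR). All BH-KO libraries were above all BH-WT libraries for both genes, and both calls held without each library and in all 10 other settings.

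In H-KO the same pair was lower: Axin2 was 10.5, 10.5 and 15.7 CPM in H-WT and 7.43, 5.40 and 8.48 CPM in H-KO (-0.78, adjusted p = 0.0209, edgeR), and Lgr5 was 14.9, 5.80 and 11.8 CPM in H-WT and 6.52, 5.30 and 6.53 CPM in H-KO (-0.82, adjusted p = 0.0395, edgeR). The Lgr5 libraries overlapped, and its call was lost without 5 of the 6 libraries (highest adjusted p 0.211). The Axin2 call was lost without H-WT replicate 3 or H-KO replicate 2 (0.112). Both H-KO calls were also lost with upper-quartile factors and plain totals, where Axin2 had an estimate as small as -0.27 and Lgr5 -0.31 (adjusted p = 0.453 for both), and that of Lgr5 in 6 of 10 other settings in all. The BH-KO effect minus the H-KO effect passed for 7 of the 16, all higher, against 3.76% of all tested genes that were higher. It was 2.51 for Lgr5 (adjusted p = 0.00294, edgeR) and 1.996 for Axin2 (adjusted p = 0.00394, edgeR), and both held without each library. Among the 4 signals, Rspo3 had the estimate of the same sign as Lgr5 and Axin2 in each line. It passed in neither line in the edgeR fit of all libraries. Whether Rspo3 had a part in the levels of Lgr5 and Axin2 was not tested.

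On the BMP side, 1 of 13 genes of BMP response and the hepcidin axis fell in H-KO and 2 rose and 2 fell in BH-KO. Of all tested genes, 19.1% fell in H-KO, and 14.3% rose and 14.3% fell in BH-KO. The BH-KO counts are thus near the background. Tfr2, a hepatocyte sensor of transferrin upstream of hepcidin, was 474, 377 and 431 CPM in H-WT and 126, 137 and 117 CPM in H-KO (-1.75, SE 0.33, adjusted p = 0.000914, edgeR). It was 518, 522 and 475 CPM in BH-WT and 320, 116 and 98.4 CPM in BH-KO (-1.50, SE 0.33, adjusted p = 0.00388, edgeR). WT and KO did not overlap, and BH-KO replicate 1 was nearest to WT. Bambi and Atoh8, targets of BMP signals, rose in BH-KO by 1.24 and 0.92 (adjusted p = 0.00959 and 0.0162, edgeR); the call of Bambi was lost without BH-KO replicate 3 (0.0563) and that of Atoh8 without BH-WT replicate 2 or BH-KO replicate 3 (highest 0.0915). Both Tfr2 calls held without each library. With plain totals 3 of the 13 rose and 1 fell in H-KO, and 7 rose and 1 fell in BH-KO.

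Among the marker lists of other liver cells, the Kupffer cell list had the most genes that fell in BH-KO. Of all tested genes, 14.3% fell in BH-KO, 34.9% passed in H-KO and 4.21% fell in BH-HF-WT. Of the 12 Kupffer cell markers, 9 fell in BH-KO against BH-WT (median -2.93). In H-KO 0 of them passed and 0 had an unadjusted p under 0.05, and 1 of them fell in BH-HF-WT. Their summed level was 82.2 to 605 CPM in H-WT, 179 to 278 CPM in H-KO, 306 to 1494 CPM in BH-WT, 67.6 to 375 CPM in BH-KO, 84.1 to 324 CPM in BH-HF-WT and 43.2 to 198 CPM in BH-HF-KO. No group had the list at 0. Clec4f, specific to Kupffer cells, was 32.6, 196 and 113 CPM in BH-WT and 21.5, 9.60 and 14.1 CPM in BH-KO (-2.94, SE 0.69, adjusted p = 0.00746, edgeR). BH-WT replicate 2 was the highest and replicate 1 the lowest of its group for Clec4f, as for most endothelial genes. The Kupffer count was 3 without BH-WT replicate 2, 1 without BH-KO replicate 2 and 3 without BH-KO replicate 3. With the compared groups alone, Cd5l was the only gene of the 9 that passed, and Clec4f was lost (adjusted p = 0.0537, edgeR). Their part in the result was not tested.

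Stellate cell markers, 12 tested, fell in 2 cases in H-KO, 3 in BH-KO and 3 in BH-HF-WT, where 19.1%, 14.3% and 4.21% of all tested genes fell. The H-KO count is thus near the background. Their summed level was 387 to 464 CPM in H-WT, 302 to 335 CPM in H-KO, 358 to 554 CPM in BH-WT, 259 to 490 CPM in BH-KO, 198 to 331 CPM in BH-HF-WT and 163 to 300 CPM in BH-HF-KO. The stellate count went down to 0 without BH-WT replicate 2, BH-WT replicate 3 or BH-KO replicate 3 in BH-KO, and to 1 without H-WT replicate 2 or H-KO replicate 3 in H-KO. In BH-HF-WT it went down to 0 without BH-WT replicate 2, BH-HF-WT replicate 2 or BH-HF-WT replicate 3. Of 5 tested lymphocyte markers 0 passed in H-KO and 1 fell in BH-KO (0 without BH-WT replicate 2, BH-WT replicate 3, BH-KO replicate 2 or BH-KO replicate 3). Of 10 hepatocyte markers, 5 fell in H-KO and 1 rose and 1 fell in BH-KO, and their summed level was 106053 to 110403 CPM in H-WT, 29603 to 39391 CPM in H-KO, 105848 to 136436 CPM in BH-WT and 40851 to 91984 CPM in BH-KO. Their part in the levels of the endothelial genes was not tested.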

How the data were processed

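Per the labels' protocols, total RNA was extracted from whole liver with Trizol and made into Illumina libraries. Reads were aligned with STAR 2.6 to mm10, per the submitters' processing notes; no source used here gives the counter, its annotation or its use of strand. The authors deposited raw counts per gene, whole numbers with no normalization, for 18 libraries. Groups were taken from the sample labels, and the 3 libraries of a group are biological replicates per the labels.

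The counts were analysed with edgeR 4.0.16 in R 4.3.3: TMM scaling, filterByExpr with a minimum count of 10, 1 mean per group over all 18 libraries (12 residual degrees of freedom), robust quasi-likelihood F-tests and Benjamini-Hochberg adjustment over 13958 genes. The code was tested on simulated data for the 3 comparisons of a KO group with its WT group, with changes set in BH-KO alone. The other comparisons were not run on simulated data. Alternatives were DESeq2 size factors, upper-quartile factors, plain totals, no filter, a filter of 1 CPM in 3 libraries, DESeq2 1.42.0, limma-voom (limma 3.58.1), the compared groups alone, a replicate block, leaving out each library, and, chosen after seeing the data, leaving out BH-KO replicate 1 and H-WT replicate 3 together. Coordinates and exon lengths came from GENCODE M21 (mm10) and promoters from RefSeq (GRCm38.p6), matched by symbol.

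The 32 genes and the lists of other genes were chosen with earlier results of these data known. In each comparison, values in every library are given for up to 8 of the 32 that passed with the largest fold change, with at most 4 more of smallest p where fewer than 4 passed, and of each other list at most 3 genes of smallest p, besides Hnf4a and Arntl; a gene of the ligand list is not reported here by name. P-values cover the spread between these libraries, and the floor of 3 counts covers counting error only.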

Additional observations from a re-analysis of the deposited data

Results flagged for a closer look

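Sox18 differed between the lines in its response in the fit of all libraries: the KO effect in the line with Arntltm1Weit and Hnf4atm1.1Gonz minus that in the line with Hnf4atm1.1Gonz was -1.98 on the log2 scale (adjusted p = 0.0461, edgeR's quasi-likelihood test of the difference). That call was fragile: it was lost without 10 of the 12 libraries in turn (highest adjusted p 0.123, same test). It was also lost without a filter, with the compared groups alone and with the replicate block. For Maf, the KO effect in livers of 45 weeks on high-fat diet minus that at 10 weeks in the same line was 1.07 (adjusted p = 0.0203, edgeR's quasi-likelihood test). The call was lost without 4 of the 12 libraries in turn (highest adjusted p 0.0579, same test) and with plain totals. The libraries labelled BH-HF-KO lacked the Arntl level of BH-KO, and 0% of all tested genes passed in BH-HF-KO against BH-HF-WT. Whether age, diet or another difference between these groups lay behind the Maf result was not tested. No gap of a single library within a group was assessed, since every group had 3 libraries.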

How the results depend on the processing

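Of 332 values of the 20 calls of single endothelial genes under other settings, 236 kept their direction and stayed past the threshold, 96 kept the direction and no longer passed, and 0 reversed. The range of the count without each library in turn ran from 1 to 6 in H-KO, from 1 to 12 in BH-KO, from 0 to 0 both in BH-HF-KO and in BH-WT against H-WT, 1 to 4 in BH-KO against H-KO, 2 to 11 in BH-HF-WT, 0 to 1 for the BH-KO effect minus the H-KO effect and 0 to 3 for the BH-HF-KO effect minus the BH-KO effect. With upper-quartile factors, 9 passed in BH-KO against H-KO. With plain totals, 6 passed in H-KO, 5 in BH-KO, 12 in BH-KO against H-KO and 0 for the BH-HF-KO effect minus the BH-KO effect. Without a filter, 4 passed in BH-KO, 1 in BH-WT against H-WT, 3 in BH-KO against H-KO and 0 for the BH-KO effect minus the H-KO effect. DESeq2 called 1 in BH-WT against H-WT, 9 in BH-KO against H-KO and 5 in BH-HF-WT. With the compared groups alone, 6 passed in H-KO, 1 in BH-KO, 11 in BH-KO against H-KO and 0 for the BH-KO effect minus the H-KO effect. After H-WT replicate 3 and BH-KO replicate 1 were left out together, a choice made after seeing the data, 4 passed in H-KO, 11 in BH-KO, 2 for the BH-KO effect minus the H-KO effect and 2 for the BH-HF-KO effect minus the BH-KO effect. The cause of these changes was not tested.

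Replicate numbers gave no pairing: deviations of same-numbered libraries correlated between -0.270 and 0.134. With the replicate block, 2 passed in H-KO, 7 in BH-KO, 3 in BH-KO against H-KO and 0 for the BH-KO effect minus the H-KO effect. Depth limits Wnt9b, Emcn, Wnt2, Sox18 and Lyve1 most, whose levels lie within a few reads of the floor in some libraries.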
